A study of Rattus norvegicus with 12 samples.

Results

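The genes described here are the glucose transporter Slc2a1, the hexokinases Hk1 and Hk2, the phosphofructokinases Pfkp and Pfkl, Aldoa, Pgk1, Eno1, Ldha and Pdk1, in the ventral prostate of adult male Wistar rats. They were taken by name, as array probe sets annotated with that 1 gene symbol alone, and the probe set with the highest mean over all arrays stood for a gene that had several. All 10 were measured, among 14506 genes tested. There were 4 groups of 3 arrays. The combined group was castrated by orchiectomy and also given 17β-estradiol at 25 mg/kg. The estradiol group stayed intact and received that same dose, diluted in corn oil. The castrated group was orchiectomized through the scrotum with ketamine at 150 mg/kg and xylazine at 10 mg/kg, and the labels do not say whether it received oil. The control group was intact and received the oil vehicle. The rats were 90 days old at treatment, and the gland was collected 3 days later. Surgery and anaesthesia came with castration, in the castrated and combined groups, and cannot be told apart from the loss of the testes. The labels do not tie an array to an animal, so the p-values measure the spread between these arrays only.

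Glycolysis splits glucose into pyruvate in the cytosol, with a small yield of ATP. Glucose enters through transporters such as Slc2a1, a hexokinase traps it as glucose 6-phosphate, phosphofructokinase commits it to breakdown, and the lower enzymes carry it to pyruvate, which lactate dehydrogenase turns into lactate. Pdk1, a kinase, switches off the pyruvate dehydrogenase complex and so holds pyruvate back from the mitochondria. The rat ventral prostate is a secretory gland that depends on testicular androgen and exports citrate, which is made from glucose carbon and aspartate. Several glycolysis genes are classical targets of the hypoxia-inducible factors.

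The values are log2 levels, 1 per gene and array, so a difference of 1 is a change of 2-fold. Levels of different probe sets cannot be set against each other, and every comparison below is of 1 gene between groups. Estradiol replicates 1 and 2 stood apart from the other 10 arrays over all probe sets. Their values had an SD of 1.93 and 2.01, against 2.24 to 2.30 on the others. The highest 10% of values averaged 9.28 and 9.82 on these 2 arrays, against 10.00 to 10.10 on the others. The lowest 10% averaged 3.41 and 3.34, against 2.69 to 2.84. High values thus read lower and low values higher on these 2 arrays. The share of this in the estradiol differences was not tested. The estradiol differences of the 10 genes are given with and without these 2 arrays. Scgb2a1, a prostatein subunit gene, averaged 12.70 in the combined, 12.57 in the estradiol, 12.64 in the castrated and 12.86 in the control group. Pbsn, the androgen-dependent secretory gene probasin, fell in all treated groups, with means of 5.88 in the combined, 6.94 in the estradiol and 4.63 in the castrated group, against 11.20 in the control group (limma, adjusted p = 0.00487, 0.0164 and 0.000991 in that order of treatments).

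Of the 10 genes, Hk2 fell in every treated group, and Slc2a1 passed only in the estradiol group, a fragile call. Slc2a1 also read below control in the combined (-0.52) and castrated groups (-0.66), and its treated groups did not differ by a call. The other 8 did not pass in any comparison with control. "Passed", "rose" and "fell" are used of genes with a Benjamini-Hochberg adjusted p under 0.05 in limma, adjusted over all genes tested. Against control, 1 of 10 passed in the combined group, where 4.32% of all genes tested passed and 2.21% fell. In the estradiol group 2 of 10 passed, where 7.99% of all genes did and 5.48% fell. In the castrated group 1 of 10 passed, where 5.54% of all genes did and 2.36% fell. Each of these 3 counts is within about 1 gene of the background share, so the set as a whole is not marked off from other genes by its number of calls. At an unadjusted p under 0.05 the count was 2 of 10 in each comparison, Hk2 and Slc2a1 each time, where 14.7% of all genes tested were counted in the combined, 30.2% in the estradiol and 16.1% in the castrated group. The median difference over the 10 genes was 0.08 in the combined group, -0.19 in the estradiol group and 0.08 in the castrated group, beside medians over all genes of 0.04, 0.07 and 0.01. Without estradiol replicates 1 and 2 the median of the 10 with estradiol was 0.10. The 3 comparisons share the control arrays.

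**Figure D1:**
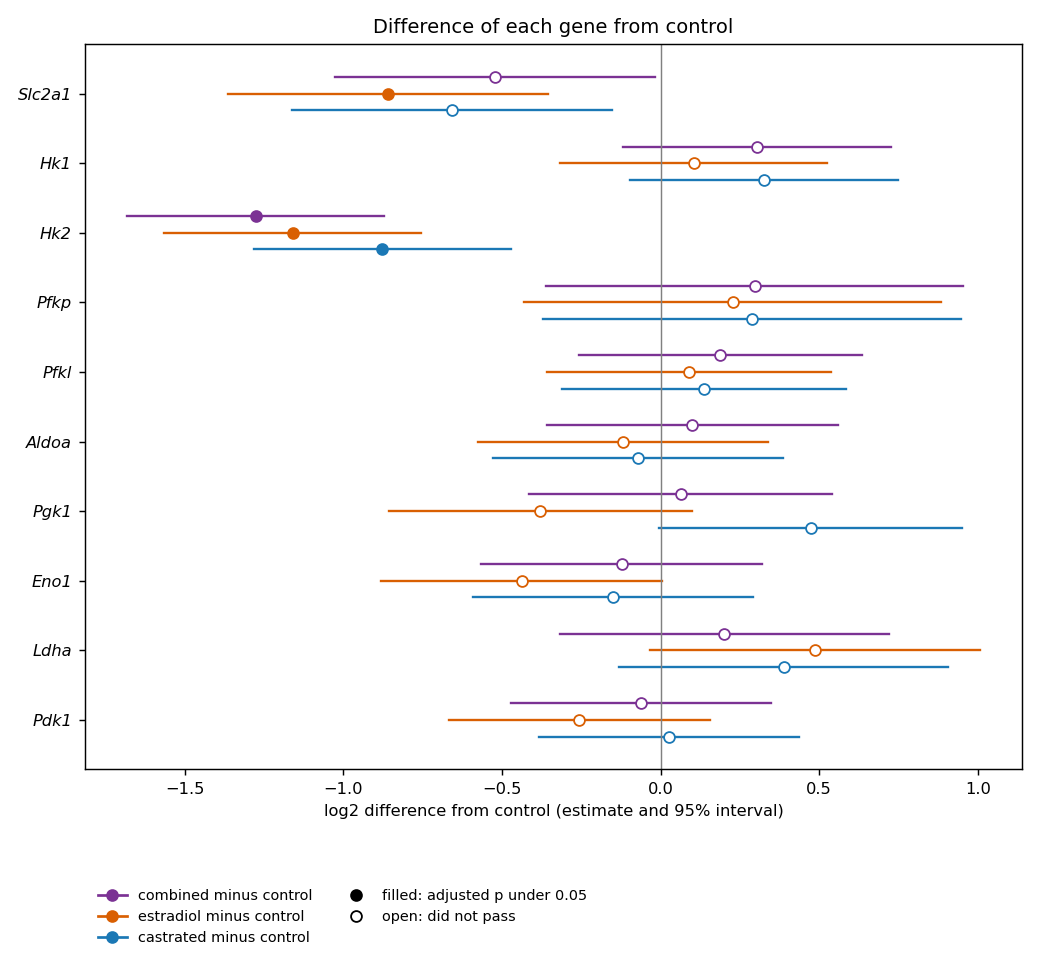
Log2 difference from control (horizontal axis) of each of the 10 genes, with its 95% interval, for the combined, estradiol and castrated groups from top to bottom within each gene. Filled points passed at an adjusted p under 0.05. The filled points are Hk2 in all 3 comparisons, from -1.28 to -0.88, and Slc2a1 with estradiol at -0.86. The intervals of all genes other than Hk2 and Slc2a1 include 0. The open points of Slc2a1 have intervals below 0.

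Hk2 encodes the hexokinase that is induced in muscle, fat and many tumours and binds the mitochondrial surface. Its log2 levels were 7.23, 7.15 and 7.11 on the combined arrays, 7.11, 7.11 and 7.62 on the estradiol arrays, 7.68, 7.62 and 7.38 on the castrated arrays, and 8.33, 8.77 and 8.21 on the control arrays. Every treated array read below every control array. The group means were 7.16 ± 0.06 in the combined, 7.28 ± 0.30 in the estradiol, 7.56 ± 0.16 in the castrated and 8.44 ± 0.30 in the control group (SD, n = 3 arrays each). Hk2 was 2.42-fold lower in the combined group than in the control group (log2 difference -1.28, SE 0.19, limma adjusted p = 0.00131). With estradiol alone it was 2.23-fold lower (-1.16, SE 0.19, adjusted p = 0.00286), and after castration alone 1.84-fold lower (-0.88, SE 0.19, adjusted p = 0.0143). In rising order the means were combined, estradiol, castrated and control. No pair among the 3 treated groups passed, so only the step below control is a call. The order of the treated groups is not settled. Hk2 was the 1 gene of the 10 to pass the F test that asks whether any group differs (adjusted p = 0.0037), where 5.47% of all genes tested passed.

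The Hk2 call against control held in 23 of 23 other settings for the combined group. For estradiol it held in 22 of 23, and was lost only when the estradiol and control arrays were fitted on their own (adjusted p = 0.0565). Without estradiol replicates 1 and 2, which leaves 1 estradiol array, the difference was -0.82 with an adjusted p of 0.0463. For castration it held in 21 of 23 settings, and was lost without control replicate 2 (-0.71, adjusted p = 0.0896) and without castrated replicate 3 (-0.78, adjusted p = 0.0775). The arrays were made from whole tissue, in which fewer cells of a type and less RNA per cell cannot be told apart.

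Slc2a1 encodes GLUT1, the transporter that supplies most cells with glucose at rest. It read 8.63, 8.64 and 8.66 on the combined arrays, 7.92, 8.30 and 8.69 on the estradiol arrays, 8.86, 7.95 and 8.71 on the castrated arrays, and 9.15, 9.06 and 9.28 on the control arrays. All 9 treated arrays lay below the lowest control array. The combined arrays lay within 0.03 of each other, whereas the estradiol and castrated arrays spread over 0.77 and 0.91. Slc2a1 was 1.81-fold lower with estradiol than in control (log2 difference -0.86, SE 0.23, limma adjusted p = 0.0412). The differences of -0.52 in the combined group (SE 0.23, adjusted p = 0.317) and -0.66 in the castrated group (SE 0.23, adjusted p = 0.145) did not pass. The call with estradiol was fragile: it held in 10 of 23 other settings, and it was lost without control replicate 1, 2 or 3, castrated replicate 3, estradiol replicate 1 or 2, or combined replicate 1, 2 or 3, each left out in turn (adjusted p between 0.0555 and 0.133). Without estradiol replicates 1 and 2 together the difference was -0.48 with an adjusted p of 0.423, while the castrated difference, -0.66, then passed (adjusted p = 0.0395). Castrated replicate 2 read low for Slc2a1, and without it the difference in that group was -0.38 (adjusted p = 0.462).

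**Figure D2:**
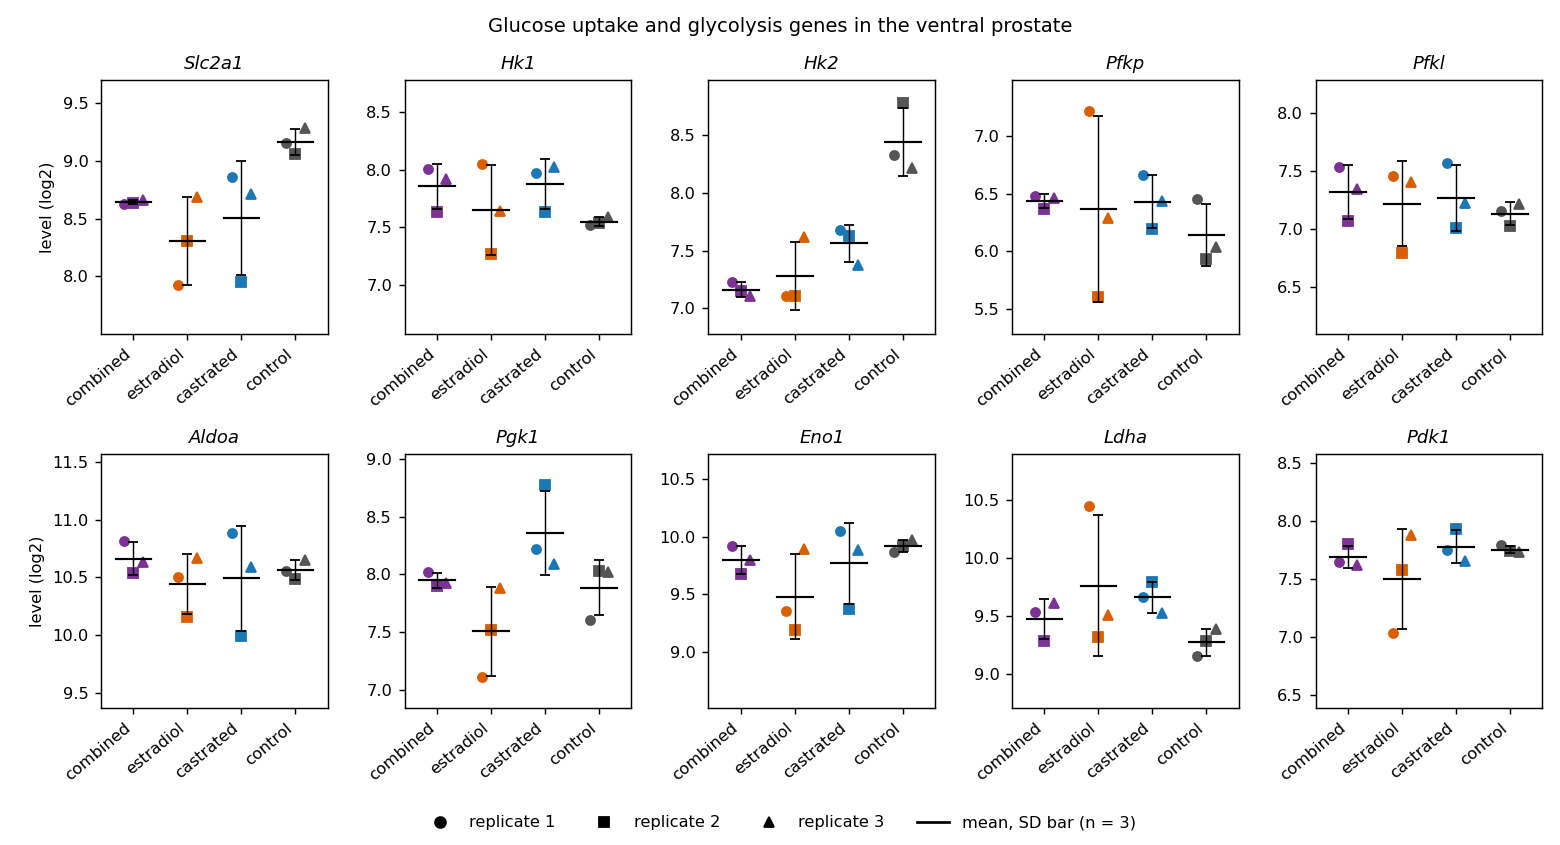
Log2 level (vertical axis) of each of the 10 genes on all 12 arrays, by group from combined, estradiol and castrated to control. Symbols mark replicates 1 to 3, lines the group mean and bars the SD (n = 3). For Hk2 and Slc2a1 every treated array lies below every control array. For most other genes the groups overlap, and the estradiol arrays spread most.

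To show what stands at the start of the genes that fell and of a classical hypoxia target that did not pass, the promoter windows of Hk2, Slc2a1 and Ldha are printed from RefSeq (build GRCr8, 250 bases before the gene start to 50 after, gene strand, 5′ to 3′). Capitals mark the letters of a hypoxia response core, ACGTG or GCGTG, or of the E-box CACGTG, on either strand. CACGTG contains ACGTG on both strands and so counts for both motifs. The windows are Hk2 at chr4:116841226-116841525 on the minus strand, Slc2a1 at chr5:138002272-138002571 on the plus strand and Ldha at chr1:106507842-106508141 on the plus strand.
Hk2: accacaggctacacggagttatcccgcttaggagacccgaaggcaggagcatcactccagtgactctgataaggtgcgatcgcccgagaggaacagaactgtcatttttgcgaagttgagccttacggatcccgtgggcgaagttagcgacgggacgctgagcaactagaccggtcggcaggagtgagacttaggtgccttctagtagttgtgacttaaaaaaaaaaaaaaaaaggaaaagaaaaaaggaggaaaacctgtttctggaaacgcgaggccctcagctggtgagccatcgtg
Slc2a1: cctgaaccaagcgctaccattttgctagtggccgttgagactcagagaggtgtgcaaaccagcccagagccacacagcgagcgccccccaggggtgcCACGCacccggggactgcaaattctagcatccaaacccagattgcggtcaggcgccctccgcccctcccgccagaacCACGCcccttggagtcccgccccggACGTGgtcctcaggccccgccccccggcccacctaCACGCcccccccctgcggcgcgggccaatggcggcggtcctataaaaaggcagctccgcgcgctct
Ldha: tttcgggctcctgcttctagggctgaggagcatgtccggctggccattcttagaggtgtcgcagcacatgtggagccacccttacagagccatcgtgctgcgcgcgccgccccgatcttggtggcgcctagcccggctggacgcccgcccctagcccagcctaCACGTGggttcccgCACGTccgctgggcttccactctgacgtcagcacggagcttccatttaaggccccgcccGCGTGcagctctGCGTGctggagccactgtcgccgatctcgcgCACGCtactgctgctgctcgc

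The Slc2a1 window held 1 ACGTG and 3 GCGTG, and the Ldha window 3 ACGTG, 3 GCGTG and 1 CACGTG. In the Hk2 window none of these letters occurred, nor AGAACA, a core that androgen and glucocorticoid receptors share, which says only that they are not in these 300 bases. RefSeq windows were matched for 9 of the 10 genes, 13 windows in all. Among all 33469 windows of this length 19.3% held ACGTG, 29.7% GCGTG, 6.42% CACGTG and 20.7% AGAACA. Of the matched genes, Pdk1 also held both cores, with 2 of each, and so did 1 of the 2 Eno1 windows, with 1 of each, and AGAACA occurred in 1 of the 3 Aldoa windows and in no other. These matches are letters in a window, and no binding was measured.

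Hk1 encodes the hexokinase found in nearly all tissues and does the same reaction as Hk2. It read 8.01, 7.64 and 7.92 on the combined arrays, 8.05, 7.27 and 7.64 on the estradiol arrays, 7.97, 7.63 and 8.03 on the castrated arrays, and 7.52, 7.54 and 7.59 on the control arrays. The combined and castrated arrays lay above all control arrays, and the estradiol arrays fell on both sides. The log2 differences from control, 0.30 in the combined, 0.10 in the estradiol and 0.33 in the castrated group, did not pass (adjusted p = 0.598, 0.729 and 0.5). Their 95% intervals ran from -0.12 to 0.73 in the combined and -0.10 to 0.75 in the castrated group, so an increase of the size of the Hk2 fall is outside both. The interval with estradiol was -0.32 to 0.53. The estradiol difference was -0.09 without estradiol replicate 1 and 0.09 without estradiol replicates 1 and 2. Weighting arrays by quality, Hk1 passed in the combined (0.37, adjusted p = 0.00938) and castrated (0.43, adjusted p = 0.00853) groups, a setting in which 28.5% and 26.1% of all genes tested passed.

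Pfkp and Pfkl encode the platelet and liver types of phosphofructokinase, the committed step of glycolysis. Pfkp read 6.48, 6.37 and 6.47 on the combined, 7.21, 5.60 and 6.29 on the estradiol, 6.66, 6.20 and 6.43 on the castrated and 6.45, 5.94 and 6.04 on the control arrays. Its estradiol arrays held both the highest and the lowest of the 12 values, 1.61 apart. Its differences from control, 0.30 in the combined, 0.23 in the estradiol and 0.29 in the castrated group, did not pass (adjusted p = 0.845, 0.615 and 0.813). Its sign with estradiol rested on 1 array: the difference was -0.20 without estradiol replicate 1, 0.61 without replicate 2 and 0.15 without both, and none passed. Pfkl read 7.54, 7.07 and 7.35 on the combined, 7.46, 6.79 and 7.41 on the estradiol, 7.57, 7.004 and 7.23 on the castrated and 7.15, 7.02 and 7.22 on the control arrays. In each treated group the number 2 array was the lowest and reached into or below the control range. Its differences of 0.19, 0.09 and 0.14 did not pass either (adjusted p = 0.865, 0.781 and 0.904). With estradiol it was -0.03 without replicate 1 and 0.28 without replicates 1 and 2. With array weights Pfkp passed in the combined (0.39, adjusted p = 0.0275) and castrated (0.42, adjusted p = 0.0338) groups, and Pfkl did not.

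The middle and lower enzymes showed no call. Aldoa, Pgk1, Eno1 and Ldha have processed pseudogenes or closely related copies in the genome, and signal shared with them cannot be told apart on these probe sets. Aldoa, which cleaves fructose 1,6-bisphosphate, read 10.82, 10.53 and 10.63 on the combined, 10.50, 10.16 and 10.67 on the estradiol, 10.89, 9.99 and 10.59 on the castrated and 10.55, 10.48 and 10.65 on the control arrays. All groups overlapped, and the differences of 0.10, -0.12 and -0.07 from control in the combined, estradiol and castrated groups had 95% intervals within 0.58 of 0 (adjusted p = 0.961, 0.712 and 0.968). Without estradiol replicates 1 and 2 the Aldoa difference with estradiol was 0.11. Eno1, the enolase of most tissues, read 9.92, 9.68 and 9.79 on the combined, 9.36, 9.19 and 9.89 on the estradiol, 10.04, 9.38 and 9.89 on the castrated and 9.87, 9.92 and 9.97 on the control arrays. Estradiol replicates 1 and 2 and castrated replicate 2 lay below the rest, and no group stood clear of control. The differences were -0.12, -0.44 and -0.15 (adjusted p = 0.946, 0.168 and 0.883). Eno1 has 3 probe sets, and with estradiol they gave -0.44, -0.46 and -0.49, none of which passed. Without estradiol replicate 3 the Eno1 difference with estradiol was -0.64 and passed (adjusted p = 0.0199), and without estradiol replicates 1 and 2 it was -0.03.

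Pgk1, phosphoglycerate kinase, the first step of glycolysis that yields ATP, differed most between the estradiol and castrated groups. It read 8.02, 7.90 and 7.93 on the combined, 7.11, 7.52 and 7.89 on the estradiol, 8.22, 8.77 and 8.09 on the castrated and 7.61, 8.03 and 8.02 on the control arrays. The castrated arrays lay above all others, and the estradiol arrays below the castrated and combined ones, though overlapping control. Estradiol minus castrated was -0.85 (SE 0.22, 1.81-fold), which had an unadjusted p of 0.00192 and an adjusted p of 0.143 and did not pass. Against control the difference was 0.06 in the combined (adjusted p = 0.983), -0.38 in the estradiol (adjusted p = 0.25) and 0.47 in the castrated group (adjusted p = 0.317). Estradiol minus castrated passed without estradiol replicate 3 (-1.04, adjusted p = 0.00628), and was -0.47 without estradiol replicates 1 and 2. Without those arrays the remaining estradiol array equalled the control mean to 2 decimals.

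At the branch after pyruvate, Ldha, the lactate dehydrogenase subunit of muscle, read 9.53, 9.28 and 9.61 on the combined, 10.46, 9.32 and 9.51 on the estradiol, 9.66, 9.80 and 9.53 on the castrated and 9.15, 9.28 and 9.39 on the control arrays. Estradiol replicate 1 was the highest of all, and the castrated arrays lay above the control arrays. The differences of 0.20 in the combined, 0.49 in the estradiol and 0.39 in the castrated group did not pass (adjusted p = 0.889, 0.188 and 0.526). The estradiol difference rested largely on replicate 1, at 0.14 without it and 0.23 without replicates 1 and 2. Without those 2 arrays the castrated difference of 0.39 passed (adjusted p = 0.0491), in a setting in which 16.6% of all genes tested did. The second Ldha probe set gave 0.18, 0.62 and 0.27, of the same sign, and did not pass. Pdk1 read 7.65, 7.80 and 7.62 on the combined, 7.03, 7.58 and 7.88 on the estradiol, 7.75, 7.94 and 7.66 on the castrated and 7.79, 7.74 and 7.73 on the control arrays. Its control arrays lay within 0.06 of each other, and every treated group reached to both sides of them. The differences of -0.06, -0.26 and 0.03 did not pass (adjusted p = 0.982, 0.359 and 0.988). With estradiol the sign of Pdk1 turned without replicates 1 and 2, to 0.13.

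The spread over arrays differed between groups. The median over the 10 genes of the range of 3 arrays was 0.21 in the combined, 0.77 in the estradiol, 0.51 in the castrated and 0.21 in the control group. Estradiol replicate 1 was the highest of all 12 arrays for Hk1, Pfkp and Ldha and the lowest for Slc2a1, Pgk1 and Pdk1. Estradiol replicate 2 was the lowest for Hk1, Hk2, Pfkp, Pfkl and Eno1. Castrated replicate 2 was the highest for Pgk1 and Pdk1 and the lowest for Aldoa, and castrated replicate 1 the highest for Pfkl, Aldoa and Eno1. No combined array was highest or lowest for any of the genes.

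Among the treated groups no gene passed in any pair. For combined minus castrated, combined minus estradiol and estradiol minus castrated, 0.0% of all genes tested passed in limma. At an unadjusted p under 0.05 the counts among the 10 genes were 0, 0 and 1, the last being Pgk1, beside 1.05%, 18.9% and 27.3% of all genes tested. Hk2 was lower in the combined than in the castrated arrays without overlap, but the difference of -0.40 had a 95% interval of -0.80 to 0.01 and an adjusted p of 1.0. For Slc2a1 the combined minus castrated difference was 0.14, with an interval of -0.37 to 0.64. The interaction is the effect of estradiol in castrated rats minus that in intact rats. It passed for 1.1% of all genes tested and for 0 of the 10, with 2 at an unadjusted p under 0.05, as were 14.2% of all genes, namely Slc2a1 (0.996, adjusted p = 0.196) and Hk2 (0.76, adjusted p = 0.22). For Hk2 combined minus castrated was -0.40 and estradiol minus control -1.16, and the difference between them did not pass. Without estradiol replicate 3 both interactions passed, Slc2a1 at 1.19 (adjusted p = 0.0367) and Hk2 at 0.93 (adjusted p = 0.0296). Without estradiol replicates 1 and 2 they were 0.61 for Slc2a1 (adjusted p = 0.423) and 0.42 for Hk2 (adjusted p = 0.475).

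**Figure D3:**
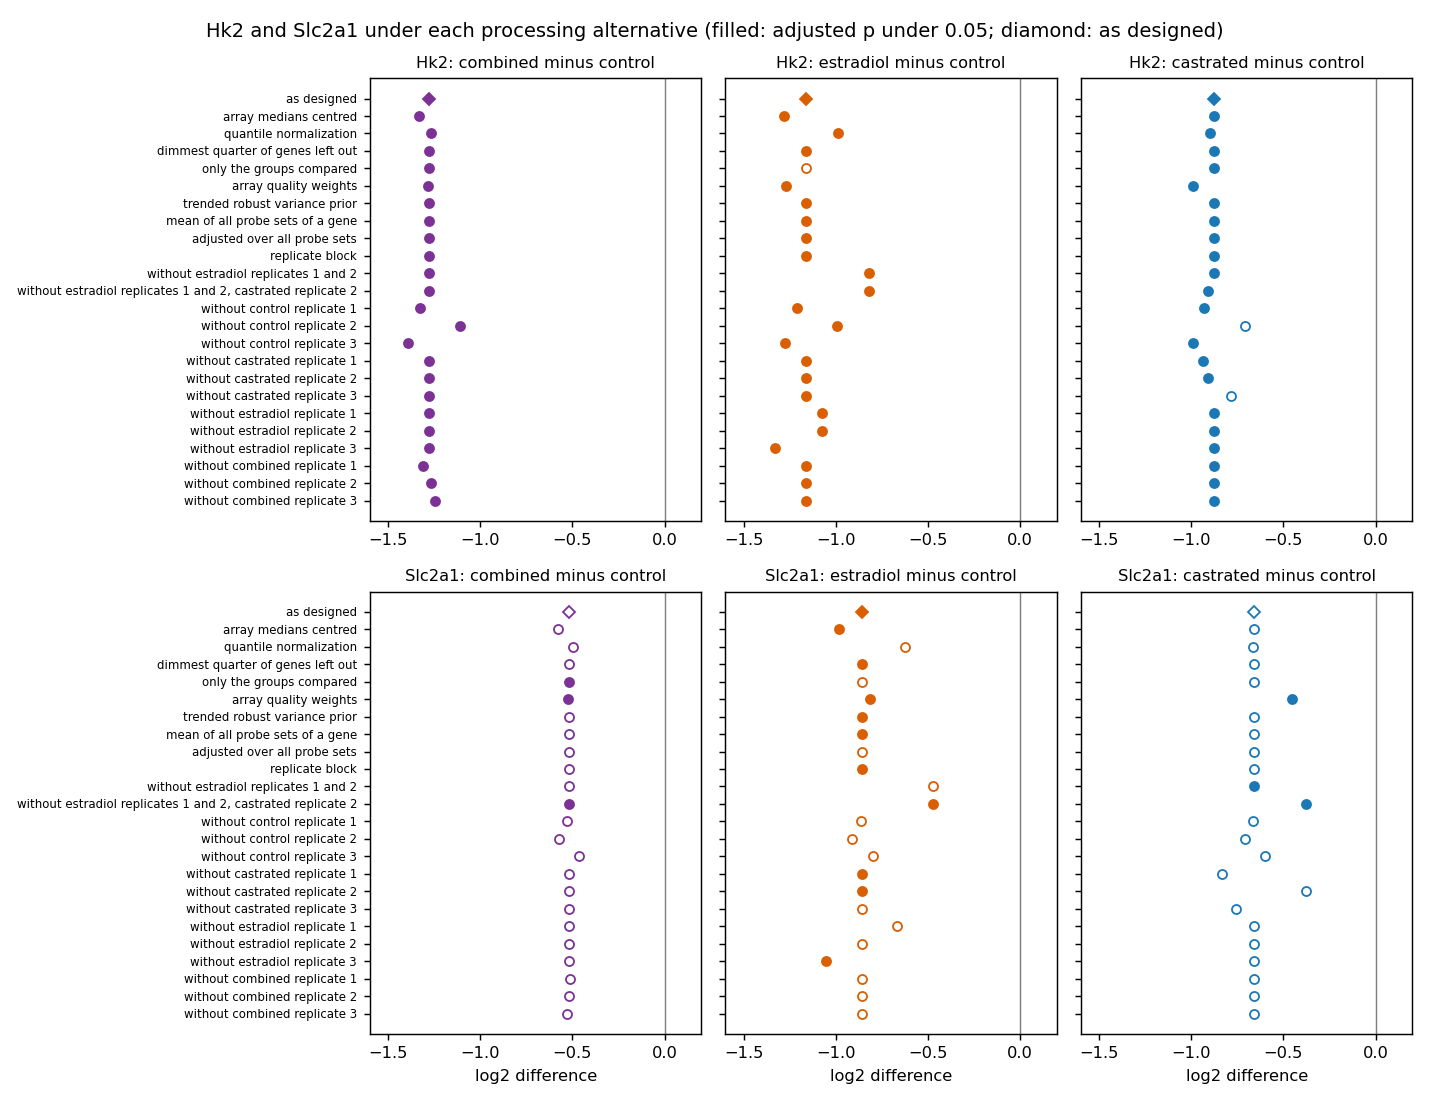
Log2 difference (horizontal axis) of Hk2 (upper row) and Slc2a1 (lower row) from control in the combined, estradiol and castrated groups, from left to right, under each processing setting. Diamonds are the values as reported and filled symbols passed. Hk2 stays at -0.71 or lower in every panel and is open in 0, 1 and 2 settings, while Slc2a1 with estradiol is filled in 10 of the 23 other settings.

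The genes outside the set whose 12 array values, each centred on its own mean, ran closest to those of Hk2 were Azin1, Sel1l and Ppil3, at root mean square distances of 0.17, 0.19 and 0.20 on the log2 scale over the 12 arrays. Azin1 is an inhibitor of antizyme, which governs polyamine synthesis, and Sel1l is a component of the endoplasmic reticulum degradation complex. Azin1 averaged 7.48 in the combined, 7.29 in the estradiol, 7.66 in the castrated and 8.52 in the control group. Likeness was the rule by which these were picked, so their values are a description.

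The genes around the 10 were read from lists. Over 109 genes of transport, glycolysis, its branches and the hypoxia response, 3 rose and 6 fell in the combined group (8.26% passed), 2 rose and 12 fell in the estradiol group (12.8%), and 3 rose and 6 fell in the castrated group (8.26%). Beside these stand 4.32%, 7.99% and 5.54% of all genes tested in the combined, estradiol and castrated groups. Without estradiol replicates 1 and 2 the numbers were 7 and 18 in the combined, 1 and 5 in the estradiol and 9 and 14 in the castrated group, where 14.5%, 5.05% and 16.6% of all genes passed in that order. None of the 11 other glucose transporters passed in any comparison with control. The one with the smallest p was Slc2a5, a fructose transporter, at 0.30 in the combined, 0.38 in the estradiol and 0.76 in the castrated group (adjusted p = 0.674, 0.241 and 0.058). None of the 17 other glycolysis enzymes passed either, and the smallest p was that of Hk3, a hexokinase of white blood cells, at 0.49 with estradiol (adjusted p = 0.0611). None of 13 genes of the glycogen, sorbitol and fructose branch passed, with Gbe1, the glycogen branching enzyme, at -0.77 with estradiol (adjusted p = 0.0639). At an unadjusted p under 0.05 limma counted 1, 3 and 2 of the transporters in the combined, estradiol and castrated groups. It counted 1, 6 and 0 of the glycolysis enzymes and 0, 4 and 1 of the branch genes. Of all genes tested, 14.7%, 30.2% and 16.1% were counted in that order of groups.

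Calls against control were not limited to regulators and side branches, since Hk2 and Slc2a1 passed too. Of the side branches, the glycogen, sorbitol and fructose list gave no call, and the pentose phosphate and hexosamine list only Gfpt1. Whether calls gather in any part of the pathway was not tested. The list of fructose 2,6-bisphosphate and gluconeogenesis enzymes is read first. Pfkfb4 makes and breaks fructose 2,6-bisphosphate, the activator of phosphofructokinase. It read 6.62, 6.80 and 6.52 on the combined, 5.99, 6.45 and 6.18 on the estradiol, 7.12, 6.90 and 6.83 on the castrated and 8.94, 9.12 and 8.99 on the control arrays. Every treated array lay far below every control array. Pfkfb4 fell 5.18-fold in the combined group (-2.37, SE 0.16, adjusted p = 3.76e-06), 7.01-fold in the estradiol group (-2.81, adjusted p = 1.82e-06) and 4.19-fold in the castrated group (-2.07, adjusted p = 7.70e-06), and each call held in 23 of 23 settings. Pfkfb2, a sister enzyme of heart, fell in the combined (-0.999, adjusted p = 0.00316) and castrated groups (-1.03, adjusted p = 0.00227), and its difference of -0.54 with estradiol did not pass (adjusted p = 0.0597). Pck2, the mitochondrial enzyme that makes phosphoenolpyruvate, fell in all 3 groups (-0.82, -0.92 and -0.77, adjusted p = 0.0143, 0.00647 and 0.0176). The Pck2 call in the combined group was lost without control replicate 2 or 3 or any 1 combined array (adjusted p up to 0.0865), and the castrated call without control replicate 2 or 3 or castrated replicate 2 (up to 0.0962). In this list of 11 measured genes, 3, 2 and 3 fell in the combined, estradiol and castrated groups, and none rose. Over all genes tested 2.21%, 5.48% and 2.36% fell in that order.

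Of 16 genes that handle lactate and pyruvate, 1 rose and 1 fell in the combined group. With estradiol 1 rose and 5 fell, and after castration 1 rose and 1 fell. The shares of all genes tested that passed were 4.32%, 7.99% and 5.54% in that order. Slc16a1, the monocarboxylate transporter that moves lactate and pyruvate across the cell membrane, read 6.34, 6.12 and 6.74 on the combined, 6.16, 5.54 and 6.05 on the estradiol, 6.54, 6.33 and 6.49 on the castrated and 5.35, 5.15 and 5.18 on the control arrays. All treated arrays lay above all control arrays. It rose 2.26-fold in the combined (1.17, adjusted p = 0.00328), 1.61-fold in the estradiol (0.69, adjusted p = 0.0476) and 2.34-fold in the castrated group (1.23, adjusted p = 0.00214). The estradiol call held in 9 of 23 settings and was lost without estradiol replicate 1, among others, and the other 2 held in 23 of 23. Gpt2, the mitochondrial alanine aminotransferase that links pyruvate and alanine, fell in all 3 (-1.53, -1.04 and -1.43, adjusted p = 2.83e-05, 0.000775 and 4.96e-05). With estradiol alone Me1, the malic enzyme (-1.34, adjusted p = 0.0468), and Bsg, the chaperone of Slc16a1 (-0.93, adjusted p = 0.0437), fell too, and both calls were lost without estradiol replicates 1 and 2. The other 2 that fell with estradiol were the mitochondrial pyruvate carrier genes Mpc1 and Mpc2, named here after their values were seen.

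Of 11 genes of the pyruvate dehydrogenase complex and its regulators, Pdhx (-0.73, adjusted p = 0.0227) and Pdhb (-0.61, adjusted p = 0.0496), subunits of the complex, fell with estradiol, and none passed in the other groups. At an unadjusted p under 0.05 limma counted 3, 7 and 3 of them in the combined, estradiol and castrated groups. Over all genes tested the shares at that threshold were 14.7%, 30.2% and 16.1%, and 2.21%, 5.48% and 2.36% fell. The Pdhx and Pdhb calls were lost without estradiol replicates 1 and 2. Of 11 genes of the pentose phosphate and hexosamine branches, Gfpt1, the first enzyme of hexosamine synthesis, fell in the combined (-0.99, adjusted p = 0.0282) and estradiol groups (-0.90, adjusted p = 0.034). Its difference of -0.75 after castration did not pass (adjusted p = 0.0829), and the estradiol call was lost without estradiol replicates 1 and 2. Leaving out any 1 control or combined array also ended the Gfpt1 call in the combined group (adjusted p up to 0.16). The estradiol call held in 11 of 23 settings.

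**Figure D4:**
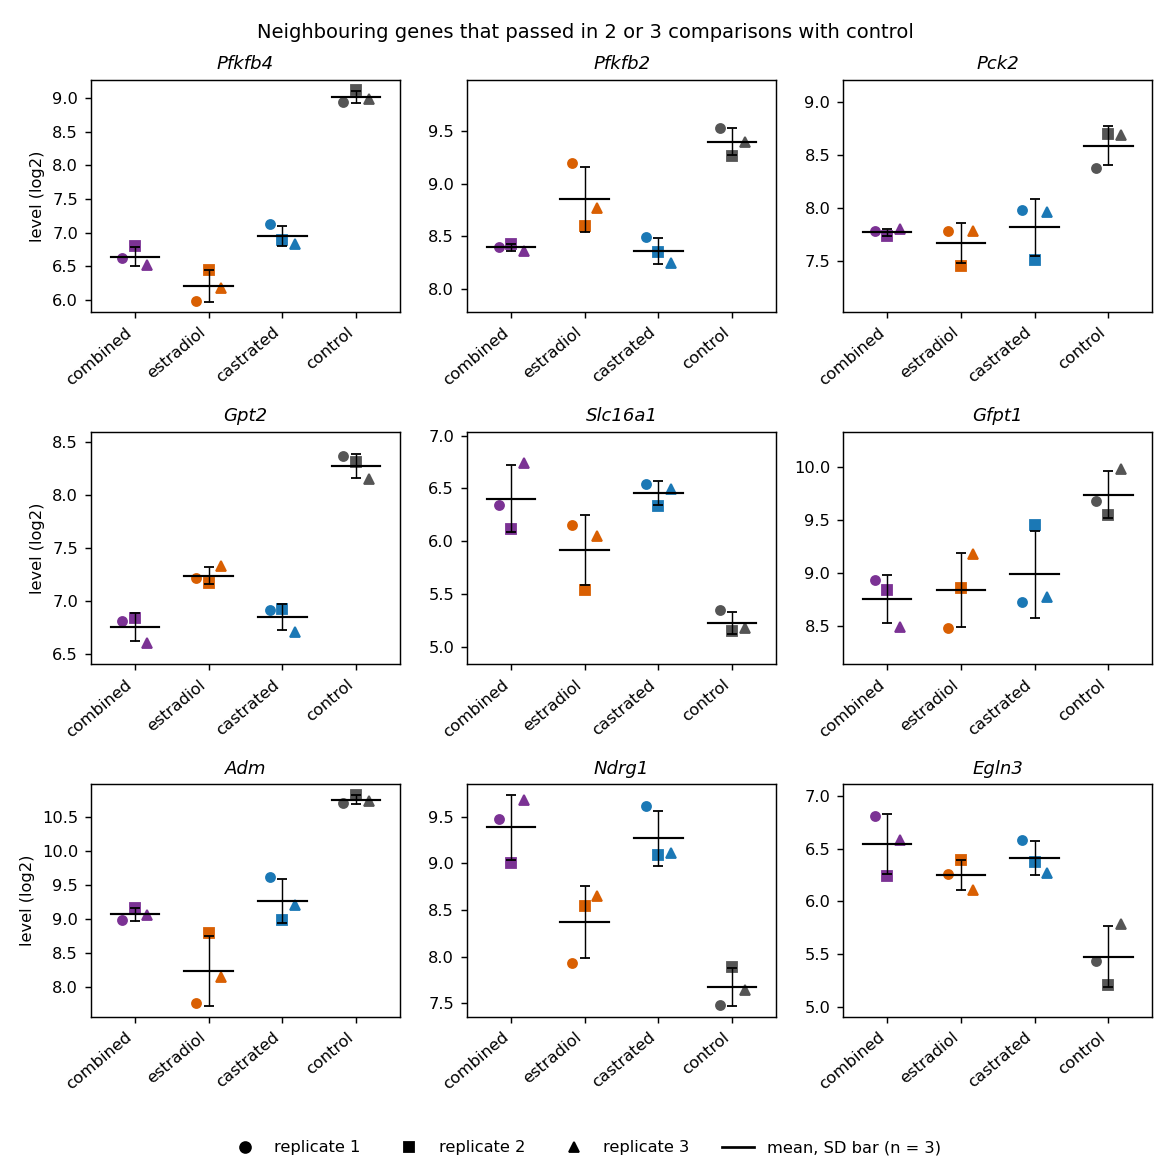
Log2 level (vertical axis) on all 12 arrays of the 9 neighbouring genes that passed in 2 or 3 comparisons with control, by group from combined, estradiol and castrated to control. Symbols mark replicates, lines the mean and bars the SD (n = 3). Pfkfb4, Pfkfb2, Pck2, Gpt2, Gfpt1 and Adm lie lower in the treated groups, and Slc16a1, Ndrg1 and Egln3 higher, with no treated array inside the control range.

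Since most of the 10 genes are known hypoxia targets, hypoxia-induced genes outside glycolysis were read beside them. Of 19 measured, 2 rose and 1 fell in the combined group. With estradiol 1 rose and 2 fell, and after castration 2 rose and 2 fell. Over all genes tested 4.32%, 7.99% and 5.54% passed in that order. Adm, the vasodilator peptide adrenomedullin, fell in all 3 groups (-1.69, -2.52 and -1.49 in the combined, estradiol and castrated groups, adjusted p = 0.000789, 3.42e-05 and 0.0018). Egln3, an oxygen-sensing prolyl hydroxylase, rose in all 3 (1.07, 0.78 and 0.93, adjusted p = 0.00511, 0.0267 and 0.0108). The Egln3 call with estradiol held in 15 of 23 settings and was lost without estradiol replicates 1 and 2, and the castrated call was lost without control replicate 2 or castrated replicate 1 (adjusted p up to 0.0729). Ndrg1, a stress-induced gene that androgen is known to raise in human prostate cells, rose in the combined (1.71, adjusted p = 0.000789) and castrated groups (1.60, adjusted p = 0.0012), and its 0.70 with estradiol did not pass (adjusted p = 0.076). P4ha1, a collagen prolyl hydroxylase, fell with estradiol (-0.78, adjusted p = 0.00645), a call lost without estradiol replicates 1 and 2. The other gene that fell after castration was Vegfa, the vascular growth factor, named after its value was seen. Members of this list thus moved in both directions within each group.

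Marker RNA of several cell types differed between groups as well. Over all 14506 genes tested, 307, 364 and 460 rose in the combined, estradiol and castrated groups, and 320, 795 and 343 fell. Of 19 macrophage markers measured, 8 rose in the combined, 4 in the estradiol and 13 in the castrated group, and none fell. Their mean level lay between 7.47 and 7.94 in the combined, 6.94 and 7.95 in the estradiol and 7.77 and 8.38 in the castrated arrays, against 6.40 and 6.87 in the control arrays. Of 14 luminal epithelial markers, 8, 4 and 7 rose and none fell, and their mean level was 10.18 to 10.44, 9.96 to 10.11 and 10.13 to 10.48 in the treated groups in that order, against 9.64 to 9.76 in control. Of 8 ventral prostate secretion markers, 1 rose and 1 fell in the combined, none rose and 2 fell in the estradiol, and 1 rose and 2 fell in the castrated group. Their mean level was 8.88 to 9.07 in the combined, 8.67 to 9.94 in the estradiol and 8.63 to 8.95 in the castrated arrays, against 9.61 to 9.71 in control. Hk2 ran opposite to the macrophage and luminal lists in all 3 groups. In the combined and castrated groups it ran the same way as the mean of the secretion list. Pbsn alone differed by -5.32 and -6.57 there. The median difference over the 8 secretion markers was -0.23 and -0.26, and Azgp1 rose in both groups. In the estradiol group the mean of the secretion list reached to both sides of control, and the median difference was -0.34. The part of the cell mix in the levels of the 10 genes was not tested. Of the lists for smooth muscle, skeletal muscle, endothelium, red blood cells, adipocytes and other accessory glands, none had more than 1 marker that passed in any comparison with control.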

How the data were processed

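RNA from 12 ventral prostate samples (500 ng, out of 30 mg of tissue) was labelled and hybridized to Affymetrix arrays. Per the submitters' processing notes the authors processed the arrays in Affymetrix Expression Console. The range of the deposited values is that of log2 levels, and they were read as such. How they were normalized, their log base and the build behind the annotation are, in the sources used here, not given, nor is how the 48 rats of the design text relate to the arrays. Of 29214 probe sets, 15310 carried 1 symbol, 323 several and 13581 none. One linear model over all 12 arrays, with a mean per group, was fitted in limma 3.58.1 under R 4.3.3, with 8 residual and 5.29 prior degrees of freedom, and tests were 2-sided, adjusted by Benjamini and Hochberg over 14506 genes. The fit was tested on simulated data. The number of arrays limits the precision: the median SE of a difference was 0.19. The members, the lists, the naming rule and the tests were chosen with earlier results of these data known. From each list up to 4 genes that passed with the largest differences were named, or the 1 with the smallest p. Deviations of same-numbered arrays correlated at -0.16 to 0.28 (7 of 18 over 0.1). All 3 pairs were over 0.1 only between estradiol and castrated (0.14, 0.28 and 0.20), where 0 genes passed with or without the number as a block; other groups were not taken as paired. Alternatives changed scaling, filter, probe sets, variance model and arrays. Figures were drawn with matplotlib 3.10.9.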

Additional observations from a re-analysis of the deposited data

Results flagged for a closer look

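For 3 of the 109 genes read from lists around glycolysis (2.75%), the effect of estradiol differed between castrated and intact rats. The test was the interaction in limma, which 1.1% of all genes tested passed. Pfkfb4 changed by -0.31 with estradiol in castrated rats and by -2.81 in intact rats, a difference of 2.50 (adjusted p = 0.000291, passed in 22 of 22 other settings). Adm changed by -0.20 in castrated and by -2.52 in intact rats, a difference of 2.32 (adjusted p = 0.00347, passed in 22 of 22). Gpt2 changed by -0.09 in castrated and by -1.04 in intact rats, a difference of 0.95 (adjusted p = 0.039, passed in 9 of 22, with adjusted p up to 0.141). All 3 also fell after castration alone, with castrated means of 6.95 for Pfkfb4, 9.27 for Adm and 6.85 for Gpt2. In that order the control means were 9.02, 10.76 and 8.28, and the combined means 6.64, 9.07 and 6.75.

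Among the 10 genes, 2 had opposite estradiol effects on every array in castrated and in intact rats, measured from the mean of the group without estradiol. This rule leaves out the spread of that group, and the share of all genes tested that meet it was not counted. Slc2a1 gave 0.14 in castrated and -0.86 in intact rats, an interaction of 0.996 (adjusted p = 0.196). Ldha gave -0.19 in castrated and 0.49 in intact rats, an interaction of -0.67 (adjusted p = 0.393). For Ldha, estradiol replicate 2, at 9.32, lay inside the control range of 9.15 to 9.39. Neither passed the test. Without castrated replicate 2, Slc2a1 gave -0.14 in castrated rats, the same sign as in intact rats, and an interaction of 0.72 (adjusted p = 0.347). Without estradiol replicate 1, Ldha gave 0.14 in intact rats, with an interaction of -0.33 (adjusted p = 0.421).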

How the results depend on the processing

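Each count of the 10 genes was recomputed in 23 other settings, 22 for the interaction and the F test, of which leaving out castrated replicate 2 together with estradiol replicates 1 and 2 was chosen after seeing the data. No call changed direction. For combined minus control the count of 1 became 2 with only the groups compared, 4 with array weights and 2 without those 3 arrays, and stayed between 1 and 1 with each array left out in turn. For estradiol minus control the count of 2 became 1 with quantile normalization, 0 with only the groups compared, 1 when adjusted over all probe sets and 1 without estradiol replicates 1 and 2, and lay between 1 and 3 with each array left out. For castrated minus control the count of 1 became 4 with array weights, 3 without estradiol replicates 1 and 2 and 3 without the 3 arrays, and lay between 0 and 1 with each array left out. With each array left out, combined minus castrated gave 0 to 0, combined minus estradiol 0 to 1 (Pgk1), estradiol minus castrated 0 to 2 (Pgk1 and Pdk1) and the interaction 0 to 2 (Slc2a1 and Hk2), all higher counts arising without estradiol replicate 3. The F test count of 1 became 4 with array weights, 2 without the 3 arrays and 1 to 3 with each array left out. With the replicate number as a block, the counts against control were 1, 2 and 1 for combined, estradiol and castrated, as without it. For estradiol minus castrated, the 1 comparison whose numbers met the pairing check, it was 0 with the block as without.

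Over all genes the numbers of calls were 627, 1159 and 803 for combined, estradiol and castrated against control. In the other settings they lay between 265 and 4134, 197 and 5329, and 361 and 3788. Without estradiol replicate 3 the count with estradiol was 5329, and with only the groups compared 197. For combined minus castrated, combined minus estradiol and estradiol minus castrated, where 0 genes passed, the highest counts were 13, 4153 and 5417, the last 2 without estradiol replicate 3. The interaction, with 159 calls, lay between 63 and 1684, and the F test, with 793, between 231 and 5306. Centring array medians moved the median of all genes with estradiol by -0.12, leaving it at -0.05 where it was 0.07 as deposited, and turned the sign of Hk1 and Pfkl there. It put 15.4% of calls with estradiol on the higher side, against 31.4% as deposited and 39.0% after quantile normalization. In the combined group that share was 38.1% when centred and 49.0% as deposited. Quantile normalization turned the sign of Aldoa with estradiol and of Aldoa and Pdk1 after castration. None of these members passed in either setting. Hk2 and Slc2a1 with estradiol were -1.28 and -0.98 with centred medians. Quantile normalization moved Hk2 the other way, to -0.99, from -1.16 as deposited. The median over the members with estradiol was -0.19 as deposited, -0.31 with centred medians and 0.015 after quantile normalization. The rescalings thus moved the estradiol differences in opposite directions.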
